A study of Rattus norvegicus with 144 samples.

Results

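The genes described here encode the enzymes that oxidise and conjugate drugs: the cytochromes P450 (Cyp), the UDP-glucuronosyltransferases (Ugt) and the sulfotransferases (Sult). Their transcripts were followed in blood after oral acetaminophen, a pain reliever whose overdose damages liver. The animals were 72 male rats of strain F344/N aged 10 to 12 weeks, 6 for each combination of dose (vehicle at 0, then 150, 1500 and 2000 mg/kg, gavaged as 2 portions in ethyl cellulose) and time of death (3, 6 and 24 h). All 12 groups were of the same strain and sex, and the 4 doses differed only in the amount of drug, as far as the labels say. Every rat was measured by 2 arrays of opposite dye orientation, with a pool of the same time's 6 vehicle RNAs in the other channel. Some arrays lacked 500 features that the others held, and this array design was spread unevenly over the doses. At 3 h both arrays were of the fuller design in 2, 5, 4 and 4 of 6 animals (0, 150, 1500 and 2000 mg/kg). At 6 h this held for 1, 3, 4 and 1, and at 24 h for none. The members are all probes whose symbol starts with Cyp and a digit, with Ugt1 or Ugt2, or with Sult. They comprise 66 probes for 62 genes, of 9653 named genes in all, and 49 of the 62 had values in enough animals to be tested among 14678 features.

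Most acetaminophen leaves the body after direct conjugation: glucuronosyltransferases attach glucuronic acid from UDP-glucuronate, and sulfotransferases attach sulfate from the donor PAPS. A smaller part is oxidised by P450 enzymes, chiefly Cyp2e1, Cyp1a2 and members of Cyp3a, to the reactive quinone imine NAPQI, which glutathione takes up until it runs out. These enzymes are known mainly from hepatocytes. Other P450s act on the body's own lipids and make steroid hormones, eicosanoids, bile acids and active vitamin D, and blood cells carry some of them.

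The values are log2 ratios of an animal over the pool, and a difference is the mean of a dose group minus the mean of the vehicle animals of that time. Neither the log base nor which dye stands on top of the ratios is stated; log10 of Cy5 over Cy3 was taken as likely from the range and format of the values, and every "higher", "lower" and size rests on that reading. A ratio carries no level, so neither the abundance of a member nor the identity of the cells could be read from it. A fall in blood can come from fewer cells of a type or from less RNA per cell, and bulk RNA cannot tell these apart. Probe sequences were not used here, so cross-hybridisation within subfamilies as alike as Cyp3a, Cyp2c or Cyp2d was not examined. Cell markers were also called at 2000 and 1500 mg/kg, but none at 150 mg/kg. At 2000 mg/kg 9.23, 9.22 and 0.818% of all features were called at 3, 6 and 24 h. At this dose B cell markers were called lower in 4 of 5 tested at 3 h and in 4 of 5 at 6 h, and T cell markers in 5 of 9 at both times. Of 8 monocyte markers 4 were called lower and 1 higher at 3 h, 2 lower at 6 h and 1 higher at 24 h. Of 7 neutrophil markers 2 were called lower at 3 h and 1 at 6 h, and 2 were called higher at 24 h. Of 14 hepatocyte markers 11 were tested, and none was called at any dose or time. The mean log2 ratio of these 11 lay between 0.0659 and 0.177 at 2000 mg/kg at 3 h, against -0.0255 to 0.0656 in vehicle animals. At 6 and 24 h its ranges overlapped at this dose. The part of this shift in the members' results was not tested.

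Few of these genes changed in blood after acetaminophen. With limma, adjusted over all features, 4 of the 49 members passed the threshold of 0.05 in a comparison with vehicle, each in 1 comparison and all at 2000 mg/kg. Cyp2j4, of a subfamily that forms epoxides of arachidonic acid, was higher at 3 h. Cyp11a1, the mitochondrial enzyme that cuts the cholesterol side chain to begin steroid hormone synthesis, and Cyp3a23-3a1, a rat Cyp3a drug oxidase that liver induces through the pregnane X receptor, were lower at 6 h. Cyp3a18, another rat Cyp3a enzyme, was lower at 24 h. No gene, averaged over its probes, passed at 1500 or 150 mg/kg; tested singly, 1 of the 3 Cyp51 probes passed at 3 and 6 h at both 2000 and 1500 mg/kg.

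The sequences upstream of the 3 members that fell are shown because Cyp11a1 and Cyp3a23-3a1 were both called at 6 h, while Cyp3a18, of the same subfamily as the second of them, was called at 24 h. For Cyp3a18 the change between times missed the threshold. They are RefSeq's, on the GRCr8 build, 250 bases before the annotated start, read 5′ to 3′ in the direction of the gene. RefSeq's promoter table held 50 of the 62 members. Capitals mark every AGGTCA (the half-site that many nuclear receptors bind) and every TATAA (the core of the TATA box), on either strand.
Cyp11a1, chr8:67318415-67318664, plus strand: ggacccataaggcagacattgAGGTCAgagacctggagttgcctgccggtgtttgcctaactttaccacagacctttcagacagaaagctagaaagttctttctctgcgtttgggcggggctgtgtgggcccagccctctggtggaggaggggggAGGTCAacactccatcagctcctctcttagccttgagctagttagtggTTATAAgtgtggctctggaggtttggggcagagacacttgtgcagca
Cyp3a23-3a1, chr12:14398804-14399053, minus strand: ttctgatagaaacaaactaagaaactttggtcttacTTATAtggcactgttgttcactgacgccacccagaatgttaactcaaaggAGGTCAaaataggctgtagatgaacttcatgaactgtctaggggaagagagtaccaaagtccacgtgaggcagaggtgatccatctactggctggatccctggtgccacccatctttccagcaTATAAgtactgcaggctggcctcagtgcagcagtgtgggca
Cyp3a18, chr12:13994062-13994311, plus strand: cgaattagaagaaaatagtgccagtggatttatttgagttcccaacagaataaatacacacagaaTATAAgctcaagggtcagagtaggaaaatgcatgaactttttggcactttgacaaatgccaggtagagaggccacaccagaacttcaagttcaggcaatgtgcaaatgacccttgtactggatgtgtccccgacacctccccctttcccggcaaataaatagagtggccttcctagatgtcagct
AGGTCA stood at 2 places in the Cyp11a1 window, at 1 in that of Cyp3a23-3a1 and at none in that of Cyp3a18. Over all 27457 promoter windows of this length 13.7% held AGGTCA and 24.1% held TATAA, and among the 50 members' windows 16 and 22 did. In the Cyp11a1 window the TATAA matches on the 2 strands overlap. GCGTG, the core that the aryl hydrocarbon receptor binds, was also searched on both strands; it is in 27.2% of all windows and in none of the 3 shown. These matches describe letters in a window and show no binding.

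Set against all features, the share of members called at 2000 mg/kg was lower at 3 and 6 h. At 24 h it rested on 1 gene, Cyp3a18, which is too few to compare the shares. At 3 h and 2000 mg/kg 1 of 49 members was called, where 9.23% of all features were. At 6 h 2 of 49 were called, against 9.22%, and at 24 h 1 of 49, against 0.818%. At 1500 mg/kg 0 of 49 were called at each time, where 1.29% (3 h), 0.749% (6 h) and 1.21% (24 h) of features were. At 150 mg/kg 0 of 49 were called and 0% of all features. Members with an unadjusted p under 0.05 numbered 7, 7 and 5 at 2000 mg/kg (3, 6 and 24 h), 3, 7 and 6 at 1500 mg/kg and 3, 0 and 3 at 150 mg/kg. In percent of the 49 members, at 2000 mg/kg these were 14.3 and 14.3 at 3 and 6 h, where 20.7 and 22.1% of all features had such a p, and 10.2 at 24 h, where 9.95% had. At 1500 mg/kg they were 6.12, 14.3 and 12.2 at 3, 6 and 24 h, where 13.2, 14.6 and 9.18% of all features had. At 150 mg/kg they were 6.12, 0 and 6.12, where 4.2, 4.72 and 2.72% had.

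For most members the interval of the difference in ratio was narrow. Because a ratio carries no level, a narrow interval does not show that the transcript was present in blood. At 2000 mg/kg the 95% interval of the difference lay within 1.5-fold of vehicle in both directions for 43 of 49 members at 3 h, 47 at 6 h and 46 at 24 h. Within 2-fold lay 47, 49 and 48. The median difference over the members was 0.06 at 3 h, 0.05 at 6 h and 0.02 at 24 h, beside 0.03, 0.02 and -0.00 over all features. Differences were positive in 38 of 49 members at 3 h (77.6%; 60.0% of all features), in 33 at 6 h (67.3%; 55.9%) and in 30 at 24 h (61.2%; 7189 of 14678 features).

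**Figure D1:**
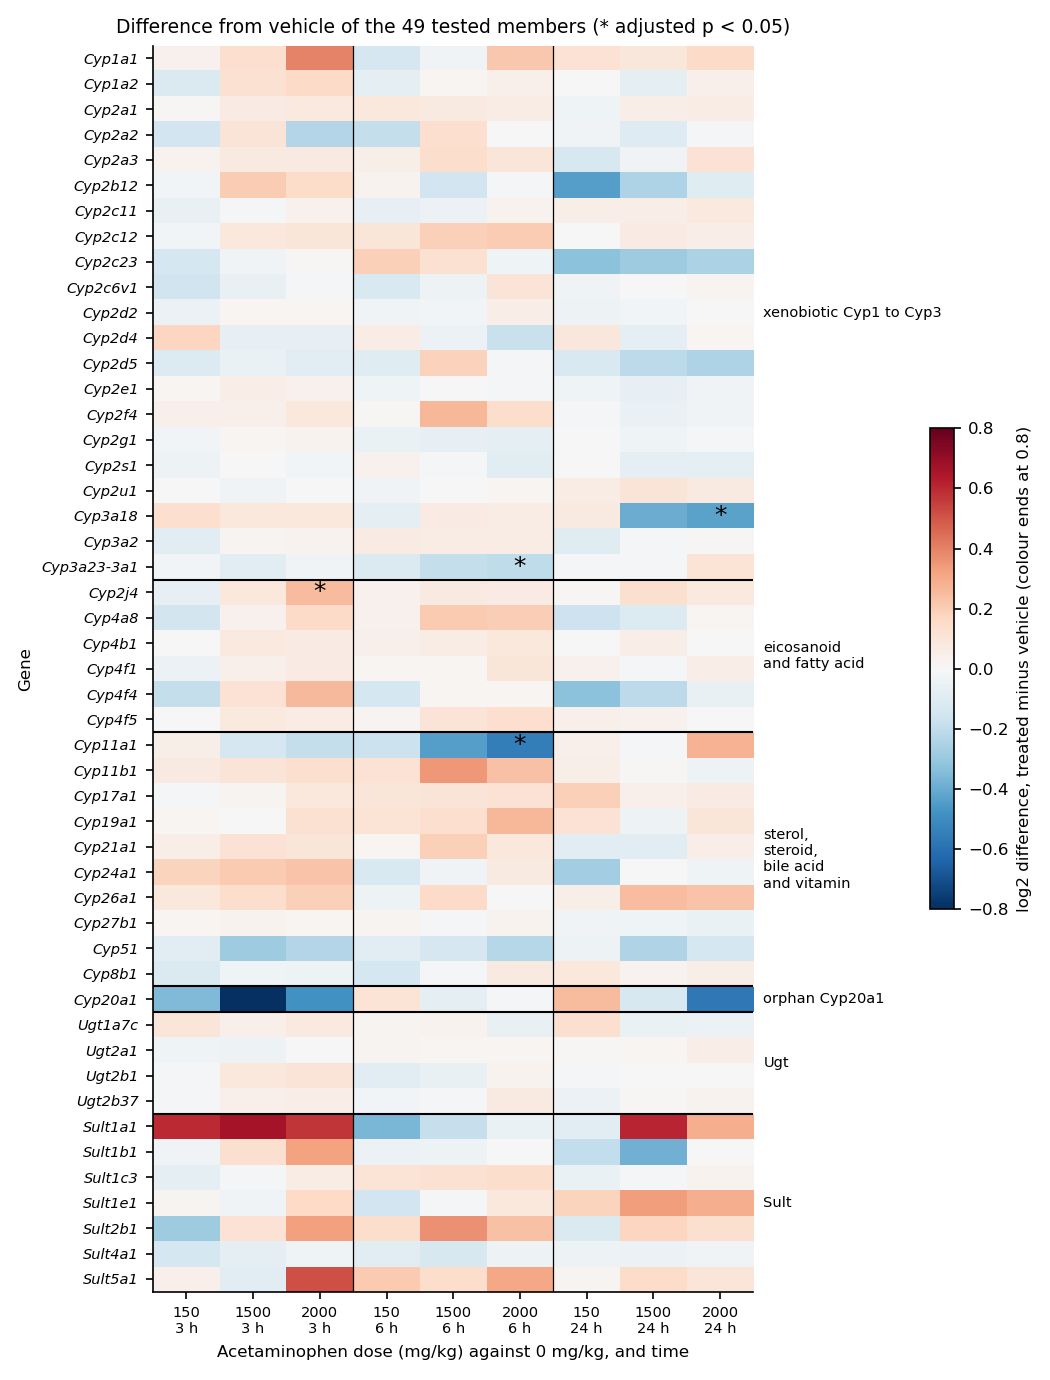
Each row is 1 of the 49 tested members, grouped by role, and each column a dose against 0 mg/kg at 3, 6 or 24 h. Colour gives the log2 difference, treated minus vehicle (red higher, blue lower, colour ending at 0.8), and a star an adjusted p under 0.05. Only 4 cells carry a star, all in columns of 2000 mg/kg, and the strongest colours without a star are those of Sult1a1 and Cyp20a1.

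Of the enzymes that oxidise acetaminophen, Cyp2e1 showed the narrowest bound. At 2000 mg/kg its log2 ratios (lowest, median, highest of 6) were -0.15, -0.06 and 0.09 at 3 h, against -0.14, -0.09 and 0.08 in vehicle animals. At 24 h they were -0.09, -0.04 and -0.00 at 2000 mg/kg, against -0.08, -0.03 and 0.08 in vehicle animals. The ranges overlapped at every dose and time. Its 9 differences from vehicle ran from -0.07 to 0.05, and the widest limits of their 95% intervals were -0.16 and 0.14; none was called (smallest limma adjusted p = 0.739).

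Cyp1a2 had values of 0.10, 0.20 and 0.37 at 2000 mg/kg at 3 h, against -0.04, 0.06 and 0.25 in vehicle animals. All 6 treated animals lay above the vehicle mean, yet the ranges overlapped, and the difference of 0.15 (SE 0.09, limma adjusted p = 0.369) was not called. At 6 h it was 0.04 and at 24 h 0.04, and over the 9 comparisons it ran from -0.12 to 0.15. Its relative Cyp1a1, which the aryl hydrocarbon receptor induces, reached 0.04, 0.10 and 1.24 at 2000 mg/kg at 3 h, against -0.33, -0.08 and -0.02 in vehicle animals. These groups did not overlap, but 1 animal stood far above the other 5, and the difference of 0.40 (SE 0.15) had an adjusted p of 0.0900 with limma. At 6 and 24 h the Cyp1a1 differences at 2000 mg/kg were 0.22 and 0.15.

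The 4 Cyp3a genes on the array did not share a pattern. Cyp3a9 lacked enough values to be tested. Cyp3a2 stayed close to vehicle, with differences from -0.09 to 0.06 over the 9 comparisons and no adjusted p below 0.727 with limma.

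Cyp3a23-3a1 had values of -0.33, -0.18 and -0.01 at 2000 mg/kg at 6 h, against -0.06, 0.02 and 0.14 in vehicle animals. Each of the 6 treated animals lay below the vehicle mean, and the ranges overlapped at their ends. The difference was -0.20 (SE 0.06, 95% interval -0.32 to -0.08, limma adjusted p = 0.0213). At 1500 mg/kg it was -0.19 at 6 h with an adjusted p of 0.0900 (0.0152 without treated animal 0621), and at 150 mg/kg -0.12 with an adjusted p of 0.961. Among omissions of 1 animal at 1500 mg/kg, only those of 0621 and 2789 gave a call. The fall was not seen at 24 h, when the difference at 2000 mg/kg was 0.11 (SE 0.06, adjusted p = 0.561). The change between times was itself tested: the difference at 24 h minus that at 6 h was 0.31 (SE 0.08, limma adjusted p = 0.0211). This call had little margin. It was lost without vehicle animal 7270 (adjusted p = 0.0692) or treated animal 3763 (0.0767), 8960 (0.0556) or 9434 (0.0549), and from either dye orientation alone (adjusted p = 0.0732 and 0.503). Its 2 arrays per animal disagreed (SD 0.13) by more than animals of a group differed (SD 0.10).

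Cyp3a18 had values of -0.36, -0.23 and -0.09 at 2000 mg/kg at 24 h, against -0.10, 0.26 and 0.45 in vehicle animals. All 6 treated animals lay below the vehicle mean, and the ranges met only at their ends. The difference was -0.43 (SE 0.11, 95% interval -0.66 to -0.20, limma adjusted p = 0.0423). The values of -0.34, -0.22 and -0.03 at 1500 mg/kg gave a difference of -0.40 (adjusted p = 0.0629), whereas at 150 mg/kg it was 0.07 and was not called. At 3 and 6 h the differences at 2000 mg/kg were 0.09 and 0.06. The change from 3 to 24 h (-0.52, adjusted p = 0.0603) and from 6 to 24 h (-0.49, adjusted p = 0.0688) missed the threshold. The call at 24 h was lost without any 1 of treated animals 1987, 5402, 5421 and 9999 or vehicle animals 2431, 2507, 5480 and 8002 (adjusted p 0.0670 to 0.134), from either dye orientation alone (adjusted p = 0.517 and 0.148), and in animals of 1 array design (difference -0.42, adjusted p = 0.126), with the difference between -0.38 and -0.49 over all 12 omissions. The vehicle animals of 24 h averaged 0.19 over their own pool, so that against the pool the treated animals were lower by less, at -0.24 (adjusted p = 0.0487). The mean log2 ratio of 7 neutrophil markers lay between 0.33 and 1.48 at 2000 mg/kg at 24 h, against -0.37 to 0.46 in vehicle animals, and its part in the Cyp3a18 result was not tested.

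Conjugation was followed through Ugt1a7c, the only Ugt1 gene measured, and Sult1a1, the phenol sulfotransferase. Ugt1a7c, a glucuronosyltransferase of the Ugt1a locus, had values of -0.24, 0.03 and 0.19 at 2000 mg/kg at 3 h, against -0.28, -0.05 and 0.16 in vehicle animals. The ranges overlapped here and in all other comparisons, and the 9 differences ran from -0.06 to 0.13 (smallest adjusted p = 0.763 with limma). The 3 Ugt2 genes, Ugt2a1, Ugt2b1 and Ugt2b37, differed from vehicle by at most 0.10 in either direction, and 0 of the 4 Ugt genes were called in any comparison.

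Sult1a1 was the least precise of these enzymes. At 2000 mg/kg at 3 h its values were -0.56, 0.32 and 1.22, against -0.62, -0.17 and -0.10 in vehicle animals, a difference of 0.57 (SE 0.23, limma adjusted p = 0.114). At 1500 mg/kg at 3 h (-0.03, 0.44 and 0.83) and at 150 mg/kg at 3 h (-0.02, 0.33 and 0.78 in the 4 animals with a value) no treated animal fell within the vehicle range. The differences were 0.67 (adjusted p = 0.122) and 0.60 (adjusted p = 0.998). At 6 h the differences at the same doses were negative, -0.05 at 2000, -0.19 at 1500 and -0.36 at 150 mg/kg, with vehicle animals spread from -0.12 to 1.003. At 24 h they were 0.29 at 2000 mg/kg and 0.61 at 1500 mg/kg (adjusted p = 0.266). No Sult1a1 difference was called, and its intervals reached from -0.84 to 1.12, so changes of over 2-fold upward remained within them.

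**Figure D2:**
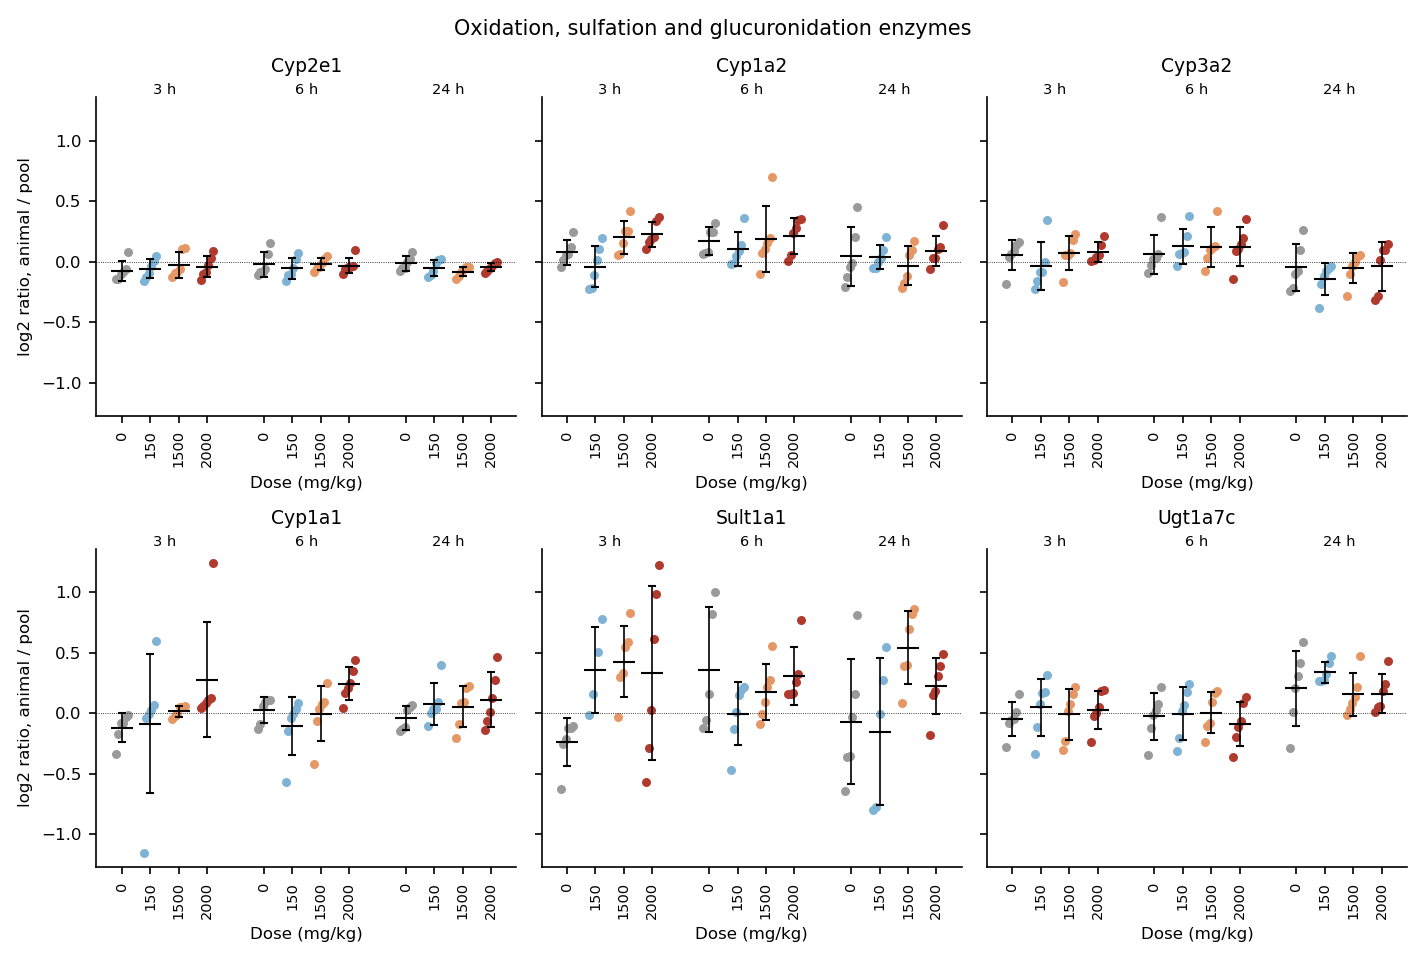
Log2 ratios of each animal over the pool for Cyp2e1, Cyp1a2, Cyp3a2, Cyp1a1, Sult1a1 and Ugt1a7c, by dose (mg/kg) at 3, 6 and 24 h. Points are animals and bars the mean ± SD of up to 6 animals. Cyp2e1 lay between -0.16 and 0.15 in all 72 animals, whereas Sult1a1 ranged from -0.80 to 1.22.

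The other xenobiotic P450s showed no called change. The group held 26 genes of the Cyp1, Cyp2 and Cyp3 families, of which 21 were tested, and 2 of these, both Cyp3a, were called. Its median difference at 2000 mg/kg was 0.03 at 3 h, 0.03 at 6 h and 0.01 at 24 h. Among the 5 lowest differences over all members at 2000 mg/kg were Cyp2a2 (-0.23, SE 0.20) and Cyp2d5 (-0.08, SE 0.10) at 3 h, Cyp2d4 (-0.18, SE 0.11) and Cyp2s1 (-0.08, SE 0.06) at 6 h, and Cyp2c23 (-0.25, SE 0.13) and Cyp2d5 (-0.24, SE 0.10) at 24 h. None of these had an adjusted p below 0.348 with limma. Cyp2c12, known in rat liver as a female-predominant enzyme, did not overlap between groups at 1500 mg/kg at 6 h: it had -0.02, 0.15 and 0.25 in treated animals, against -0.20, -0.03 and -0.02 in vehicle animals, with a difference of 0.19 that was not called.

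Among the Cyp2j and Cyp4 genes, which oxidise arachidonic and other fatty acids, 1 member was called. All 6 tested members had positive differences at 2000 and 1500 mg/kg at 3 h and at 6 h, with medians of 0.11 and 0.08 (3 h) and 0.09 and 0.06 (6 h). Cyp2j4 had values of 0.08, 0.14 and 0.48 at 2000 mg/kg at 3 h, against -0.16, -0.12 and 0.09 in vehicle animals. The ranges overlapped narrowly. The difference was 0.26 (SE 0.08, 95% interval 0.09 to 0.42, limma adjusted p = 0.0374), and at 6 and 24 h it was 0.07 and 0.08. Without treated animal 0766, which stood far above the others, it was 0.20 with an adjusted p of 0.154. The call was also lost without treated animal 8511 (adjusted p = 0.0693) or vehicle animal 5554 (0.0723), 6370 (0.101), 7558 (0.0820) or 8282 (0.0705). It was lost as well from either dye orientation alone (adjusted p = 0.0769 and 0.411). Within animals whose arrays were both of the design that holds 500 further features the difference was 0.35 (4 treated, 2 vehicle), and within those whose arrays both lacked them 0.17 (2 treated, 2 vehicle). In the same comparison the mean log2 ratio of 8 monocyte markers lay between -0.97 and -0.49 at 2000 mg/kg, against -0.40 to 0.12 in vehicle animals. That of 5 B cell markers lay between -1.72 and -1.06, against -0.43 to 0.36. For 9 T cell markers it lay between -1.03 and -0.56, against -0.19 to 0.10. The part of these cells in the Cyp2j4 result was not tested.

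Of the 4 called genes, Cyp11a1 had the smallest adjusted p. At 6 h its values were -0.77, -0.60 and -0.38 at 2000 mg/kg, against -0.14, -0.05 and 0.04 in vehicle animals. The groups did not overlap. The difference was -0.55 (SE 0.13, 95% interval -0.81 to -0.29, limma adjusted p = 0.00377), or 1.47-fold lower. The animals of 1500 mg/kg at 6 h spread from -0.91 to 0.06 with a median of -0.63, 4 of them between -0.91 and -0.62 and the others at -0.13 and 0.06. That difference was -0.44 with an adjusted p of 0.0737, and without treated animal 0621 it was -0.55 with an adjusted p of 0.00577, or without treated animal 2789 -0.51 with an adjusted p of 0.0469. None of the other omissions of 1 animal gave a call at this dose. At 150 mg/kg the difference was -0.17 with an adjusted p of 0.961.

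At 3 h Cyp11a1 stood at -0.29, -0.26 and -0.09 at 2000 mg/kg, against -0.11, -0.03 and 0.14 in vehicle animals, a difference of -0.19 (SE 0.13, limma adjusted p = 0.443). All 6 treated animals lay below the vehicle mean. At 24 h the values were -0.14, 0.29 and 0.88 at 2000 mg/kg, against -0.13, 0.00 and 0.39 in vehicle animals, and the difference of 0.28 (SE 0.13, adjusted p = 0.448) had the other sign. The change from 6 to 24 h was 0.83 (SE 0.18, limma adjusted p = 0.00383). From 3 to 24 h the change was 0.47 and was not called.

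The Cyp11a1 call at 6 h held without any 1 of the 12 animals (differences from -0.60 to -0.52, adjusted p 0.00255 to 0.0136) and from either dye orientation alone. Within animals whose arrays lacked the 500 features the difference was -0.58 (5 treated, 5 vehicle), and between the 1 treated and 1 vehicle animal on the other design -0.42. For Cyp3a23-3a1 the same values were -0.25 and 0.03, the second again from 1 animal a group. Lymphocyte markers fell in the same comparison: the mean log2 ratio of 9 T cell markers lay between -0.77 and -0.36 at 2000 mg/kg at 6 h, against -0.13 to 0.10 in vehicle animals, and that of 5 B cell markers between -1.16 and -0.64, against -0.21 to 0.30. The mean of 8 monocyte markers lay between -1.12 and -0.22 at 2000 mg/kg at 6 h, against -0.26 to 0.10 in vehicle animals. The part of these cells in the Cyp11a1 and Cyp3a23-3a1 results was not tested.

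**Figure D3:**
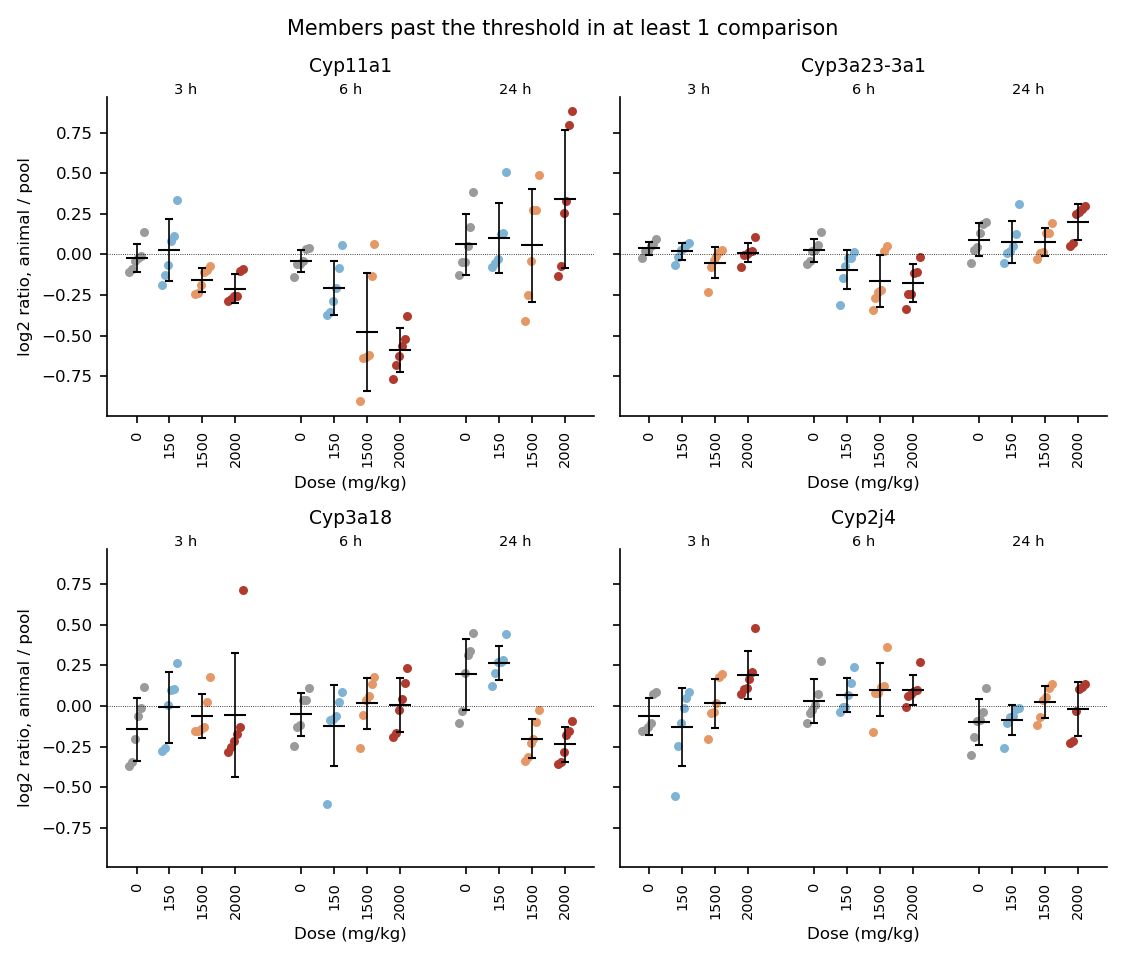
Log2 ratios of each animal over the pool for Cyp11a1, Cyp3a23-3a1, Cyp3a18 and Cyp2j4 by dose (mg/kg) at 3, 6 and 24 h, with the mean ± SD of 6 animals. Cyp11a1 at 2000 mg/kg lay between -0.77 and -0.38 at 6 h, below all vehicle animals, and between -0.14 and 0.88 at 24 h.

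The members that changed between times were Cyp11a1 and Cyp3a23-3a1. For the difference at 2000 mg/kg, 2 of 49 members changed from 6 to 24 h, where 3.67% of all features did. From 3 to 24 h 0 of 49 changed, against 2.73% of features, and from 3 to 6 h 0 of 49, against 0.00681%. With an unadjusted p under 0.05 there were 3, 3 and 1 members in the same order (6.12, 6.12 and 2.04%), where 17.3, 15.9 and 4.26% of all features had such a p.

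Of the other sterol, steroid and vitamin P450s none was called. The group held 13 genes, of which 10 were tested. Named for their size at 2000 mg/kg were Cyp19a1, the aromatase that makes estrogens (0.27, SE 0.14), and Cyp11b1, which completes corticosterone synthesis (0.23, SE 0.10), both at 6 h, and Cyp26a1, which breaks down retinoic acid (0.23, SE 0.13), at 24 h. Cyp11b1 at 1500 mg/kg at 6 h had values of -0.04, 0.20 and 0.57, against -0.21, -0.17 and 0.14 in vehicle animals, and its difference of 0.35 had an adjusted p of 0.0740 with limma (0.0146 without treated animal 0621). No other omission of 1 animal gave a Cyp11b1 call.

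Cyp51, the sterol demethylase of cholesterol synthesis, had 3 probes that disagreed. Averaged over them its differences at 2000 mg/kg were -0.24 (SE 0.08) at 3 h and -0.23 (SE 0.08) at 6 h, with adjusted p of 0.0622 and 0.0715 with limma. Probe 19342 alone read -1.02, -0.80 and -0.62 at 2000 mg/kg at 3 h, against -0.35, 0.05 and 0.33 in vehicle animals, and -0.78, -0.65 and -0.52 at 6 h, against -0.15, 0.16 and 0.27. The groups did not overlap at either time.

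With each probe tested singly, probe 19342 was lower at 2000 mg/kg by -0.83 at 3 h (SE 0.15, limma adjusted p = 0.000101) and by -0.76 at 6 h (adjusted p = 0.00117), and at 1500 mg/kg by -0.62 at 3 h (adjusted p = 0.0230) and -0.58 at 6 h (adjusted p = 0.0496). The share of all probes and unnamed features called in that fit was 8.98%, 8.86%, 1.31% and 0.668% in the same order. The other probes of Cyp51, 9073 and 17040, had differences of 0.06 and 0.06 at 2000 mg/kg at 3 h and of -0.03 and 0.11 at 6 h, and were not called. Which of the 3 probes reads the Cyp51 transcript was not examined. Probes of Cyp2c23 also disagreed, with differences of -0.69 (probe 5732, SE 0.23, adjusted p = 0.173) and 0.05 (probe 13650) at 2000 mg/kg at 24 h. Probe 5732 differed as much at 24 h at 150 mg/kg (-0.74) and 1500 mg/kg (-0.75), and none of the 3 was called. Its 5 vehicle animals averaged 0.70 over their own pool, and the means of the dosed groups lay between -0.05 and 0.01. The pair of Cyp2d2 probes differed from vehicle by at most 0.11 in any dose comparison.

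**Figure D4:**
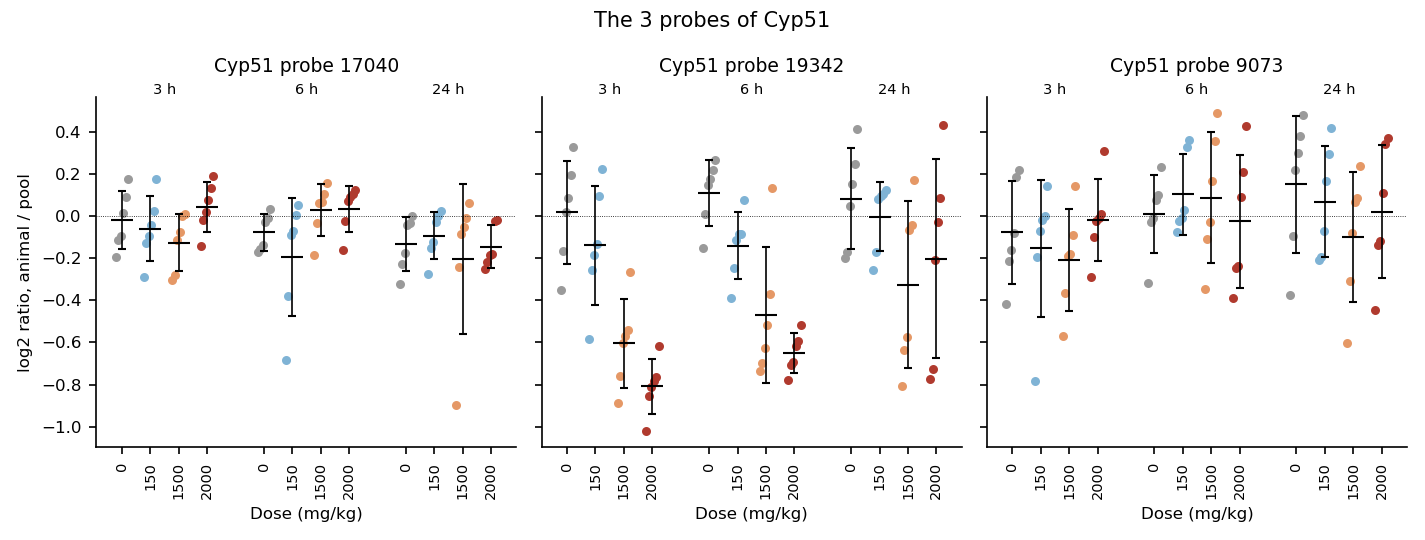
Log2 ratios of each animal over the pool for the 3 probes of Cyp51, by dose (mg/kg) at 3, 6 and 24 h, with the mean ± SD of 6 animals. Probe 19342 was lower at 1500 and 2000 mg/kg at 3 and 6 h, with no overlap with vehicle at 2000 mg/kg, while probes 9073 and 17040 overlapped vehicle throughout.

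Cyp20a1, a P450 with no settled substrate, had the largest single difference of any member without passing the test. It read -1.18, -0.58 and -0.25 at 1500 mg/kg at 3 h, against -0.21, 0.20 and 0.71 in vehicle animals, a difference of -0.82 (SE 0.25, limma adjusted p = 0.0709), and the groups did not overlap. At 2000 mg/kg the difference was -0.48 at 3 h (5 treated animals with a value), -0.01 at 6 h and -0.57 at 24 h, with SE of 0.25 to 0.26.

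Of 9 Sult genes 7 were tested and 0 were called. At 2000 mg/kg at 3 h 6 of the 7 were positive (60.0% of all features), with a median of 0.32. Sult5a1 had values of 0.05, 0.41 and 1.64, against -0.11, 0.05 and 0.14 in vehicle animals, and its difference of 0.51 (SE 0.18) had an adjusted p of 0.0544 with limma. Without treated animal 0766 the difference was 0.61 (adjusted p = 0.0210), and the call was also made without treated animal 6219 or 8846. It was not made without treated animal 4010, which held the value of 1.64, nor in any other omission of 1 animal. Sult2b1, which sulfates cholesterol, and Sult1b1, which sulfates phenols and thyroid hormone, differed by 0.33 (SE 0.19) and 0.32 (SE 0.13) at 3 h. Without treated animal 6219 Sult1a1 (0.75, adjusted p = 0.0253) and Sult1b1 (0.41, adjusted p = 0.0384) passed the threshold at 3 h. Every other omission of 1 animal left both uncalled. At 24 h Sult1e1, the estrogen sulfotransferase, differed by 0.29 (SE 0.13, adjusted p = 0.388). At 6 h Sult5a1 differed by 0.31 and Sult2b1 by 0.23. The Sult median was 0.08 at 6 h and at 24 h 0.10.

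Members whose treated and vehicle groups did not overlap are given beside the share of all features that did not overlap. At 2000 mg/kg this held for 1 of 49 at 3 h, Cyp1a1 (6.92% of all features). It held for 1 of 49 at 6 h, Cyp11a1 (7.56%), and for none at 24 h (0.634%). At 1500 mg/kg it held for 2 of 49 at 3 h, Cyp20a1 and Sult1a1 (4.07%). There it also held for 1 of 49 at 6 h, Cyp2c12 (0.736%), and for none at 24 h (0.347%). At 150 mg/kg it held for 1 of 49 at 3 h, Sult1a1 (0.225%), and for none at 6 h (0.327%) or 24 h (0.129%).

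The 13 members that could not be tested were Cyp1b1, Cyp26b1, Cyp27a1, Cyp2b21, Cyp2c7, Cyp2j3, Cyp2t1, Cyp3a9, Cyp4a3, Cyp4v3, Cyp7b1, Sult1c2 and Sult1d1. They were listed at exactly 0, which was read as no measurement, on a median of 63.9% of arrays (6.25 to 94.4%). The median over the 49 tested members was 0% (highest 6.94%).

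The tested members varied among animals about as other features did. The SD between animals of a group had a median of 0.17 over the members and 0.20 over all features, and the half-difference of an animal's 2 arrays had an SD of 0.12 and 0.15. The ratio of these SDs had a median of 1.31 in members and 1.21 in all features. It was highest in Cyp11a1 (3.90), Cyp2d4 (3.75) and Cyp2c11 (3.13), and it was below 1 in 16 of 49 members (32.7%; 29.7% of all features), among them Cyp1a1 (0.70), Sult1b1 (0.71) and Cyp3a23-3a1 (0.75).

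Among the 18 vehicle animals, after each time's mean was taken off, the SD was largest for Sult1a1 (0.43), Cyp19a1 (0.39), Cyp24a1 (0.35), Cyp20a1 (0.34) and Sult2b1 (0.32). It was smallest for Ugt2b37 (0.05), Cyp27b1 (0.06), Ugt2a1 (0.07), Cyp2g1 (0.07) and Cyp2d2 (0.07). In all 5 members with the largest vehicle SD the 2 arrays of an animal disagreed by more than animals of a group differed, with ratios of 0.87 (Sult1a1), 0.95 (Cyp19a1), 0.76 (Cyp24a1), 0.97 (Cyp20a1) and 0.78 (Sult2b1). For Cyp24a1 and Cyp27b1, which break down and make active vitamin D, the SD of that disagreement was 0.37 and 0.04.

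**Figure D5:**
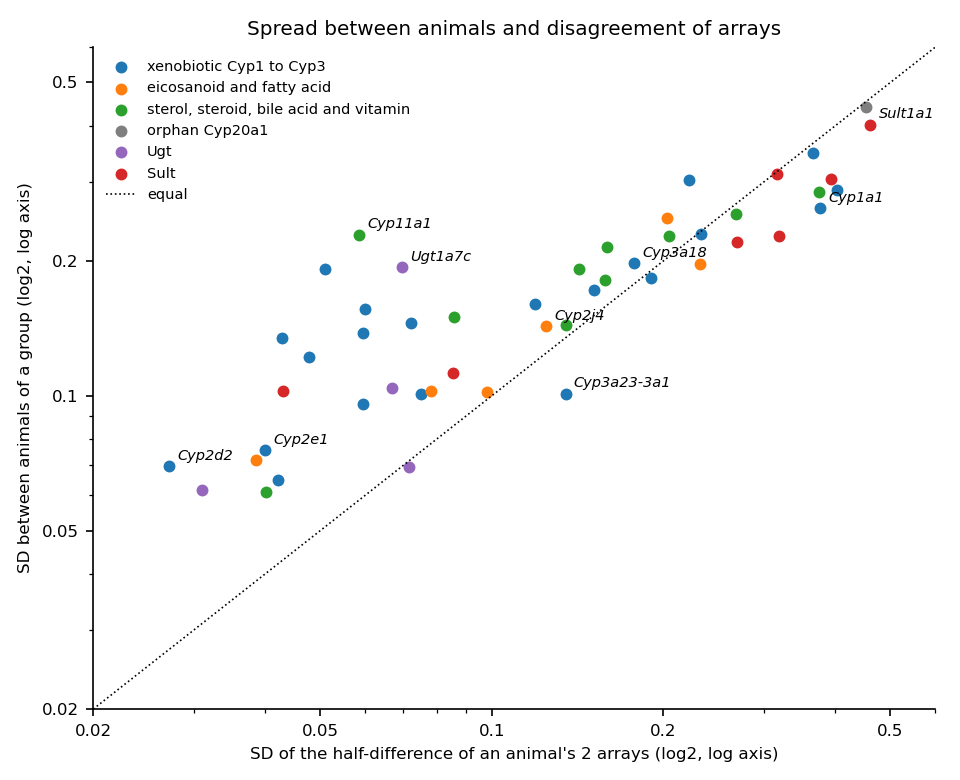
For each of the 49 tested members, the SD between animals of a group (vertical) against the SD of the half-difference of an animal's 2 arrays (horizontal), both on log axes in log2 units; the dotted line marks equal values. Cyp11a1 stands highest above the line (0.23 against 0.06), and Cyp3a23-3a1 lies below it (0.10 against 0.13).

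Other genes of these pathways were followed in 4 lists. None of 7 tested receptors and partners (of 12) and none of 5 tested electron donors (of 7) was called in any comparison. Of 8 genes for cofactor supply 4 were tested. Called at 2000 mg/kg were 2 of the 4 at 3 h (9.23% of all features), 1 at 6 h (9.22%) and 1 in the change from 6 to 24 h (3.67%). Ugp2, which makes the UDP-glucose that becomes UDP-glucuronate, averaged -0.69 at 2000 mg/kg at 3 h, against -0.20 in vehicle animals, a difference of -0.48 (SE 0.14, limma adjusted p = 0.0161). At 6 h it averaged -0.49, against 0.08, a difference of -0.57 (SE 0.14, adjusted p = 0.00499), and it changed from 6 to 24 h by 0.64 (adjusted p = 0.0496). Papss1, which makes the sulfate donor PAPS, averaged -0.62 at 2000 mg/kg at 3 h, against -0.08 in vehicle animals, a difference of -0.54 (SE 0.18, adjusted p = 0.0399).

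Of 21 genes of drug conjugation and transport 14 were tested. The same 1 of the 14 was called at 6 h at 2000 mg/kg (9.22% of all features) and at 1500 mg/kg (0.749%), and in the change from 6 to 24 h (3.67%). Slco1b2, an organic anion uptake transporter known from liver, averaged -0.74 at 2000 mg/kg at 6 h, against 0.03 in vehicle animals (difference -0.77, SE 0.16, limma adjusted p = 0.00127). It averaged -0.59 at 1500 mg/kg at 6 h, a difference of -0.62 (adjusted p = 0.0455), and it changed from 6 to 24 h by 1.08 (adjusted p = 0.00231). Ugp2 and Slco1b2 passed the test in the same 2 contrasts at 2000 mg/kg as Cyp11a1 and Cyp3a23-3a1, at 6 h and from 6 to 24 h. These contrasts share the groups of 6 h, and a link between the genes was not tested.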

How the data were processed

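Blood RNA of 72 rats was measured on 144 2-colour arrays. The deposited values are ratios within an array, likely log10 of Cy5 over Cy3; per the labels each array paired 1 animal with the vehicle pool of its time, and no source used here gives the authors' scale, centring, direction, scanner software or background steps. The deposited key gives each animal's dose and time. Array medians of the deposited log10 values lay between -0.00754 and 0.00873, and no loess or other normalization was added. The number of arrays limits the precision.

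Exact zeros (10.9% of values) were taken as missing. Ratios were multiplied by the log2 of 10, the sign was turned where the animal was in Cy3, and both arrays of an animal were averaged. The turned arrays of an animal correlated positively in 53 of 72 animals (median r 0.168 over features), and 0 pairs of arrays of 1 orientation and time had r under -0.3. The median r of such pairs, each from different animals, was 0.353 to 0.395. Arrays of 1 dye orientation thus resembled each other more than the arrays of an animal did, and the part of dye effects in the results is limited only by averaging both orientations. Probes with 1 symbol were averaged per gene, and probes with several symbols were not named. Features with a value in at least 4 of 6 animals in every group were kept. One limma 3.58.1 model (R 4.3.3) of 12 group means gave two-sided tests, with Benjamini-Hochberg adjustment over all 14678 features in each comparison. On simulated data for 2000 mg/kg at 24 h over these 14678 features, 79.1% of 1.5-fold, 95.5% of 2-fold and 100% of 4-fold changes were called, with 4 false calls.

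The members, lists and tests were chosen with earlier results of these data known. Named are Cyp2e1, Cyp1a2, the Cyp3a and Ugt1a members and Sult1a1, every called member, the 5 highest and 5 lowest differences at 2000 mg/kg at each time, the 5 largest and 5 smallest vehicle SDs, and called genes of the pathway lists; Cyp2c12, Cyp11b1 at 1500 mg/kg and the single probes were named after their values were seen. Alternatives covered zeros, probes, array design, centring, scaling, the filter, array weights, the pool as control, dye orientation, the prior and single animals.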

Additional observations from a re-analysis of the deposited data

Results flagged for a closer look

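Of 154 groups of animals checked for the named members, 16 held an animal far from the other animals of its group; chance alone would mark about 5% of groups. Animal 0766 of 2000 mg/kg at 3 h was highest for 3 genes: Cyp1a1 (1.24, next 0.12), Cyp2j4 (0.48, next 0.21) and Cyp3a18 (0.71, next -0.13). In the same group Sult5a1 reached 1.64 in animal 4010 (next 0.54).

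At 6 h and 2000 mg/kg animal 3763 was highest for Cyp2e1 (0.094, next -0.04) and lowest for Cyp2s1 (-0.33, next -0.02), and animal 2864 was highest for Sult1a1 (0.77, next 0.33). At 1500 mg/kg at 6 h animal 4178 was highest for Cyp1a2 (0.70, next 0.19). At 150 mg/kg animal 4145 was lowest for Cyp3a18 at 6 h (-0.61, next -0.09), and animal 2344 was highest for Cyp11a1 at 24 h (0.51, next 0.13).

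Among vehicle animals of 3 h, 7558 was lowest for Cyp3a2 (-0.18, next 0.04) and Cyp51 (-0.32, next -0.02), and 3482 was highest for Cyp2e1 (0.0805, next -0.06) and lowest for Sult1a1 (-0.62, next -0.26). Without vehicle animal 7558 Cyp51 passed the threshold at 3 h at 2000 mg/kg (difference -0.29, limma adjusted p = 0.0157) and at 1500 mg/kg (-0.35, adjusted p = 0.0268). At 1500 mg/kg it also passed without treated animal 5545, and no other omission of 1 animal gave a Cyp51 call at 3 h. Among vehicle animals of 6 h, 4101 was highest for Cyp3a2 (0.37, next 0.07) and 3273 for Cyp11b1 (0.14, next -0.11).

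The differences at 2000 mg/kg changed between 6 and 24 h, by a test of the change itself, for Cyp11a1 (0.83) and Cyp3a23-3a1 (0.31).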

How the results depend on the processing

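No called difference changed its direction in any setting. The Cyp11a1 call at 6 h held in all 12 other settings (differences -0.61 to -0.49). The Cyp2j4 call held in 9 of 12, the Cyp3a23-3a1 call in all but the single dye orientations, and the Cyp3a18 call in 8 of 12. For 2000 mg/kg the number of members called at 3 h, 1 as reported, was 2 with each probe tested singly, 0 in animals of 1 array design, 8 with array weights, 11 against the pool, and 0 from the animal in Cy5 or in Cy3 only. At 6 h, with 2 as reported, it was 3 by probe (adding Cyp51 probe 19342), 3 with zeros kept as values (adding Cyp2b21), 9 with array weights, 13 against the pool and 1 from each dye orientation. At 24 h, with 1 as reported, it was 0 with zeros kept as values (Cyp3a18 adjusted p = 0.0532 with limma), 0 in 1 array design, 4 against the pool and 0 from each dye orientation. For 1500 mg/kg, with 0 as reported, it was at 3 h 1 by probe, 1 with the array design as a covariate (Cyp51), 2 with array weights and 3 against the pool. At 6 h it was 1 by probe, 4 in 1 array design, 6 with array weights and 7 against the pool, and at 24 h 1 with arrays scaled (Cyp3a18) and 2 against the pool. For 150 mg/kg it was 0 apart from 2 against the pool at 24 h. The setting of 1 array design left 4 treated (2000 mg/kg) and 2 vehicle animals at 3 h. At 6 h it left 2 treated (1500 mg/kg) and 5 vehicle animals. Changes between times, 2 as reported, were 4 with arrays scaled, 5 with array weights, 6 against the pool and 1 from each dye orientation. The pool leaves out the vehicle animals' own spread; the cause of the other shifts was not tested. Leaving out 1 animal in turn gave 0 to 4 calls (3 h), 1 to 3 (6 h) and 0 to 1 (24 h) at 2000 mg/kg, 0 to 1, 0 to 3 and 0 to 1 at 1500 mg/kg, and 0 at 150 mg/kg; it was not run for changes between times. No paired analysis was possible because the groups share no replicate numbers.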

Other observations

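Vehicle animals did not always average to their own pool. Sult1a1 averaged -0.24 ± 0.20 (SD, n = 6) at 3 h and 0.36 ± 0.52 (SD, n = 5) at 6 h. At 24 h Cyp4f4 averaged 0.26 ± 0.30, Cyp2c23 0.25 ± 0.25 and Ugt1a7c 0.21 ± 0.31 (SD, n = 6 each).

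Sult1b1, 0.32 higher at 2000 mg/kg than in vehicle animals at 3 h and not called, had the other sign at 1500 mg/kg at 24 h. Its difference there was -0.38 (limma adjusted p = 0.173) and was not called. Without treated animal 8385 it was -0.50 (adjusted p = 0.0353), and no other omission of 1 animal gave a Sult1b1 call there.

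Cyp2b21, left untested for its many exact zeros, was called at 2000 mg/kg at 6 h when zeros were kept as values (difference 0.47, limma adjusted p = 0.0491).

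In animals of 1 array design at 1500 mg/kg at 6 h, Cyp2f4 (0.50, limma adjusted p = 0.0308) and Cyp2d5 (0.45, adjusted p = 0.0491) were called higher, beside lower calls for Cyp11a1 (-0.72) and Cyp3a23-3a1 (-0.32). These calls rest on only 2 treated animals, against 5 vehicle animals.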
